A study of Homo sapiens with 6 samples.

Results

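Core pluripotency factors are the transcription factors and RNA-binding proteins that mark and maintain cells able to form every tissue of the embryo. The 10 genes described here are POU5F1 (OCT4), SOX2, NANOG, SALL4, PRDM14, ZFP42 (REX1), DPPA4, LIN28A, LIN28B and L1TD1. The list was chosen with earlier results of these data known. Its genes were taken by name, not by any measured value, as every probe set whose platform annotation names one of them. That gave 19 probe sets of 54613 on the array: 18 name 1 gene and read 9 of the 10 genes, of 19775 genes measured in that way. The remaining probe set names POU5F1 together with 3 near-identical copies and is given separately. The cells were of the human line NTERA2/D1, established from a testicular teratocarcinoma and grown in medium with 10% fetal bovine serum. One group received siRNA against VAMP7 and the other a nonspecific Scrambled siRNA, both starting 24 h after plating and lasting 72 h. Each group held 3 arrays of total RNA, and no untransfected cells belong to either group. The comparison asks which transcripts differ when VAMP7 is lowered. The labels call the samples biological replicates without saying whether they were separate cultures, so p-values reflect spread that may be purely technical. In bulk RNA, fewer cells of a type and less RNA per cell cannot be told apart.

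In pluripotent cells POU5F1 and SOX2 bind DNA side by side, NANOG joins them at many of the same enhancers, and each of the 3 genes is among the targets of the others. SALL4 and PRDM14 are zinc-finger factors that work with this circuit, and ZFP42 is a zinc-finger marker of it. LIN28A and LIN28B bind precursors of the let-7 microRNAs and block their maturation, which keeps growth genes translated, and L1TD1 is an RNA-binding protein found in complex with LIN28A. Embryonal carcinoma, the stem cell of teratocarcinoma, is known for expressing SOX2 and NANOG at high level, whereas seminoma carries SOX17 in place of SOX2.

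The sequences shown here are the windows that run from 250 bases before to 50 bases after the start of the 2 core genes that have one in the RefSeq table of GRCh38.p14, since both carry the octamer letters read by POU5F1. Of the 10 genes 6 had such a window (7 windows in all). SALL4, PRDM14, POU5F1 and LIN28A had none. Capitals mark the octamer core ATGCAAA and the SOX core ACAATG on either strand. The NANOG window is chr12:7789152-7789451 and the SOX2 window chr3:181711675-181711974, both on the plus strand.
NANOG: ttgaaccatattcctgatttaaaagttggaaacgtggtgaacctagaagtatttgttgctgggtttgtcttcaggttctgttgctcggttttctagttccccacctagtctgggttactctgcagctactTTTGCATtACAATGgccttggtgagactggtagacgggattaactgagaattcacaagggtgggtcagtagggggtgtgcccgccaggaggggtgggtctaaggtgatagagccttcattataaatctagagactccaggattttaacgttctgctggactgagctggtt
SOX2: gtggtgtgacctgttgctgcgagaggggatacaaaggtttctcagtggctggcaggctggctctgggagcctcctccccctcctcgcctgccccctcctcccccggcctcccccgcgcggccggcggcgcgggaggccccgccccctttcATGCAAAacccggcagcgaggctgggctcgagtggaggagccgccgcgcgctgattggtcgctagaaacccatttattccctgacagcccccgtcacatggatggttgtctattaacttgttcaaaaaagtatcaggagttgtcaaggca

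In NANOG the octamer core lay on the minus strand from 120 to 114 bases before the start and the SOX core on the plus strand from 112 to 107 bases before it, with 1 base between them. SOX2 held the octamer core from 100 to 94 bases before its start. Over all 35116 windows the octamer core was present in 4.46% and the SOX core in 10.8%. Their joined form, CATTGTNATGCAAA, was in 3 windows (0.00854%), 1 of them that of NANOG. The joined letters were written with the known NANOG element in mind, so that match is a description. Neither motif overlaps the other, and the arrays measured no binding at these letters.

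The knockdown was visible in its target. VAMP7, a SNARE protein for vesicle fusion with late endosomes and lysosomes, read 137, 175 and 149 intensity units in VAMP7 siRNA cells and 2487, 2617 and 2741 in scrambled siRNA cells (log2 fold change -3.71, SE 0.11, limma adjusted p = 0.000362). It was the only probe set called of 54613 at an adjusted p under 0.05, a background of 0.00183%. The 6 arrays had median intensities from 58.9 to 67.5 and no 2 held identical values. VAMP7 siRNA replicate 1 correlated least with the remaining arrays, 0.9837 on average, where the other 5 had 0.9856 to 0.987. Fold changes are differences of mean log2(intensity + 50), VAMP7 siRNA minus scrambled siRNA, a scale that understates changes of dim genes. With 3 arrays against 3 an exact two-sided permutation test cannot give a p under 0.1, so calls rest on limma across all probe sets.

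Most of these genes were among the brighter genes on the array. Ordered by mean intensity in scrambled siRNA cells among 19775 genes, with the brightest probe set standing for each gene, 7 of the 9 genes with a probe set of their own lay in the top 10%. LIN28A was at rank 75 (top 0.379%), SOX2 at 226 (1.14%), LIN28B at 652 (3.3%), NANOG at 1379 (6.97%), DPPA4 at 1442 (7.29%), L1TD1 at 1903 (9.62%) and SALL4 at 1952 (9.87%). PRDM14 stood lower at rank 6585 (33.3%), and ZFP42 was past the middle at rank 12115 (61.3%). The POU5F1 probe set, placed on the same scale, would stand at rank 1157 (5.85%). The ranks depend on the probe set taken: with the mean of the probe sets of every gene, 5 of the 9 lay in the top 10%. LIN28A then ranked 43, LIN28B 375, SOX2 672, SALL4 1150, NANOG 1637, L1TD1 2060, DPPA4 2100, PRDM14 4880 and ZFP42 13674, so L1TD1 and DPPA4 left the top 10%. Probe sets differ in how strongly they bind, so these ranks order signal and not amounts of transcript. With the brightest probe set, the ranks in VAMP7 siRNA cells were 73 for LIN28A, 171 for SOX2, 580 for LIN28B, 1648 for NANOG, 1426 for DPPA4, 1924 for L1TD1, 1781 for SALL4, 6119 for PRDM14 and 12121 for ZFP42. Neighbours in the order were not separated on single arrays. NANOG ranked from 1235 to 1823 over the 6 arrays and DPPA4 from 1360 to 1539, while L1TD1 ranked from 1773 to 2233 and SALL4 from 1428 to 2196. LIN28A kept to ranks 65 to 83 and SOX2 to ranks 145 to 250.

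**Figure D1:**
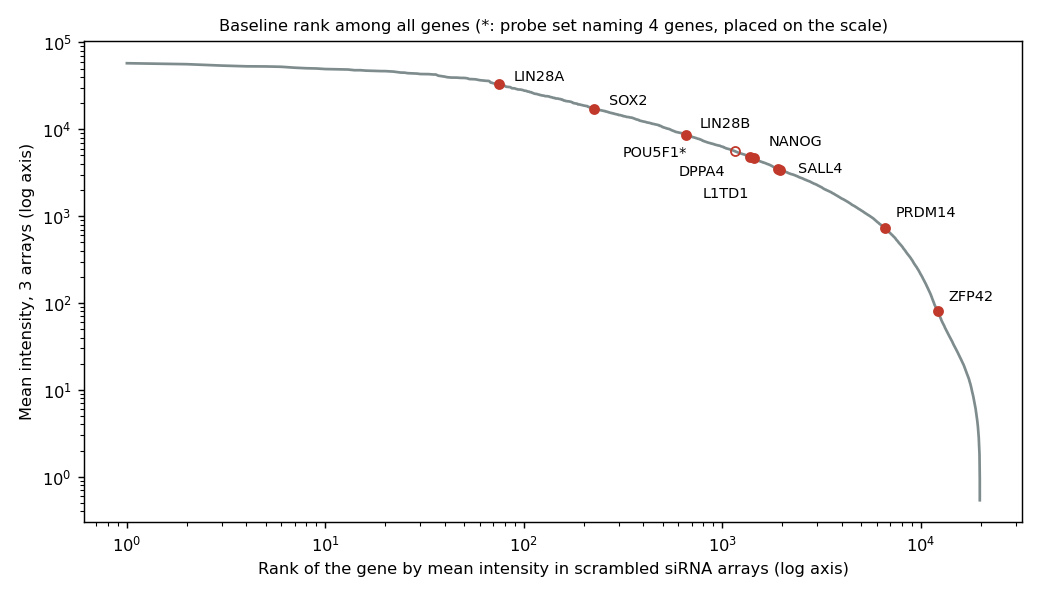
Mean intensity in the 3 scrambled siRNA arrays (y, log axis) against the rank of each of 19775 genes (x, log axis), with the grey curve for all genes and red points for the 10 core factors. LIN28A at rank 75 is furthest left and ZFP42 at rank 12115 is on the steep fall of the curve; the open point is the POU5F1 probe set, which names 4 genes.

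The identity of the line was read from markers. Of the embryonal carcinoma markers 8 had a probe set of their own. SOX2, NANOG, DNMT3B, PODXL, LIN28A, GDF3 and CDH1 read above the median gene and TNFRSF8 (CD30) below it on all 6 arrays. Their scrambled siRNA means ran from 143 for TNFRSF8 to 32836 for LIN28A. SOX17 read 29.1 in VAMP7 siRNA cells and 25.9 in scrambled siRNA cells, below the median gene on all 6 arrays, and so did PRAME. Other genes listed as seminoma markers were bright: KIT averaged 1925 in VAMP7 siRNA cells and 1939 in scrambled siRNA cells. Of the lineage factors, TBXT, GATA4, GATA6 and CDX2 lay below the median gene on all 6 arrays, whereas PAX6 and SOX1 did not. PAX6, an eye and neural factor, averaged 1149 in VAMP7 siRNA cells and 1018 in scrambled siRNA cells. SOX1 averaged 241 in VAMP7 siRNA cells and 228 in scrambled siRNA cells, and was below the median gene on 1 array. CDH5 and PECAM1 of endothelium, PTPRC of leukocytes and DCN of fibroblasts were below the median gene on all arrays. COL1A1 was not: it averaged 2872 in VAMP7 siRNA cells and 2568 in scrambled siRNA cells. In the wider marker list given below, VWF of endothelium was in the top 25.1% of genes in scrambled siRNA cells. It averaged 1596 in VAMP7 siRNA cells and 1176 in scrambled siRNA cells. VIM of the same list was in the top 0.759%. Endothelial and fibroblast markers were thus not uniformly low.

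None of the 19 probe sets passed the test, and their log2 fold changes ran from -0.28 to 0.24. Of the 19, 11 lay above 0 and 8 below, with a median of 0.03, beside a median of 0.02 over all 54613 probe sets. At an unadjusted p under 0.05 there were 0 members, where 6.62% of all probe sets reached that level. The smallest unadjusted p among members was 0.0516, for NANOG, and the smallest adjusted p was 0.755. The arrays of the 2 groups did not overlap for 2 of the 19, beside 12.4% of all probe sets, which is close to the background. Of the 19 probe sets 4 read below the array median on every array: 1 for SOX2, 2 for ZFP42 and 1 for DPPA4.

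**Figure D2:**
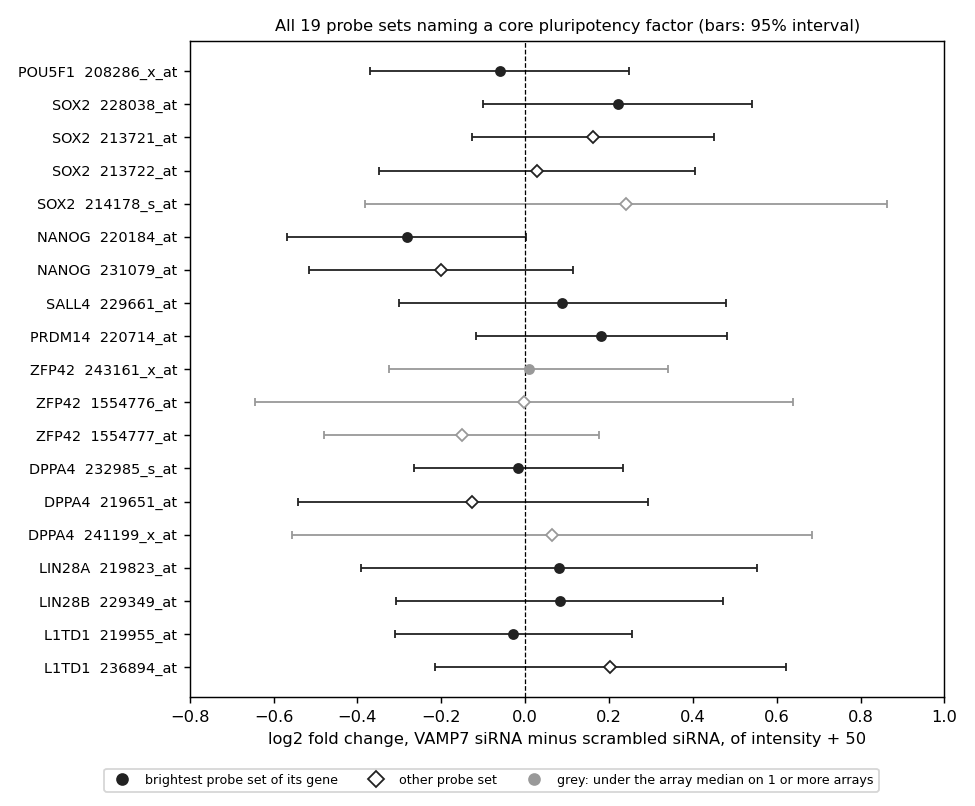
Log2 fold change, VAMP7 siRNA minus scrambled siRNA, of log2(intensity + 50) (x) for each of the 19 probe sets (y), with bars for the 95% interval of the limma fit. All intervals include 0; the upper bound for the brighter NANOG probe set is 0.003.

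NANOG, a homeodomain factor that stabilises the pluripotent state, had the lowest fold change. Its brighter probe set (220184_at) read 3629, 4283 and 3993 in VAMP7 siRNA cells and 5151, 4314 and 5053 in scrambled siRNA cells. The highest VAMP7 siRNA array lay just below the lowest scrambled siRNA array, so the groups did not overlap. The mean in VAMP7 siRNA cells was 82% of that in scrambled siRNA cells. On the log2 scale this was -0.28 (SE 0.12), with a 95% interval of -0.57 to 0.003 or folds from 0.68 to 1.0, and a limma adjusted p of 0.755 that ranged from 0.601 to 0.88 over the alternatives. A second NANOG probe set (231079_at), dimmer than the first, read 379, 281 and 292 in VAMP7 siRNA cells and 354, 354 and 402 in scrambled siRNA cells. Its groups overlapped, because VAMP7 siRNA replicate 1 exceeded all but the highest scrambled array, and its log2 fold change was -0.20 (SE 0.13, limma adjusted p = 0.837), or -0.32 to -0.13 with an array left out. The 2 probe sets thus shared a sign but not the order of the VAMP7 siRNA arrays: replicate 1 was the lowest on the first and the highest of its group on the second.

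SOX2, the HMG-box partner of POU5F1, lay above 0 on each of its 4 probe sets, except that 213722_at was at -0.01 after median centring, at -0.02 with array weights, at -0.10 without VAMP7 siRNA replicate 1 and at -0.03 without scrambled siRNA replicate 3. The brightest (228038_at) read 18940, 21830 and 19160 in VAMP7 siRNA cells and 14659, 19305 and 17673 in scrambled siRNA cells. Scrambled siRNA replicate 1 was the lowest array, and scrambled replicate 2 lay within the VAMP7 siRNA range. On the log2 scale the difference was 0.22 (SE 0.14), with an interval of -0.10 to 0.54 (limma adjusted p = 0.824). The next probe set (213721_at) read 4554, 4623 and 4642 in VAMP7 siRNA cells and 4316, 4550 and 3542 in scrambled siRNA cells. Its groups did not overlap, although the lowest VAMP7 siRNA array (4554) and the highest scrambled array (4550) nearly met, and its log2 fold change was 0.16 (limma adjusted p = 0.863), or 0.06 without scrambled siRNA replicate 3, the lowest array. The third (213722_at) averaged 583 ± 117 in VAMP7 siRNA cells and 565 ± 55.5 in scrambled siRNA cells (SD, n = 3 each), a log2 fold change of 0.03. The fourth (214178_s_at) was below the array median on all 6 arrays, with values from 6.42 to 47.3. Its log2 fold change of 0.24 (SE 0.26), the highest of the 19, rests on those dim readings and was 0.10 to 0.50 with an array left out. A probe set for SOX2-OT, the long noncoding RNA in whose locus SOX2 lies, averaged 217 ± 73.1 in VAMP7 siRNA cells and 233 ± 56.5 in scrambled siRNA cells (SD, n = 3 each; log2 fold change -0.11, SE 0.24).

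POU5F1, the POU-domain factor at the centre of the circuit, was read only together with POU5F1B, POU5F1P3 and POU5F1P4, its near-identical copies. That probe set (208286_x_at) read 6261, 4805 and 5073 in VAMP7 siRNA cells and 5314, 5518 and 5916 in scrambled siRNA cells. VAMP7 siRNA arrays were both the highest and the lowest of the 6. The difference was -0.06 in log2 (SE 0.13), with an interval of -0.37 to 0.25 (limma adjusted p = 0.959). There are 3 further probe sets that name 1 copy each and may read POU5F1 transcript too, since the sequences are so alike. The one named for POU5F1B read 7385, 6051 and 7247 in VAMP7 siRNA cells and 8512, 7291 and 7877 in scrambled siRNA cells, a log2 fold change of -0.20 (SE 0.12, limma adjusted p = 0.827). The POU5F1P4 probe set was at -0.15 (SE 0.14) and the POU5F1P3 probe set at -0.03 (SE 0.13). On all 4, replicate 2 was the lowest array of the VAMP7 siRNA group and of the 6. Which of the 4 genes gave the signal cannot be told apart on these arrays.

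**Figure D3:**
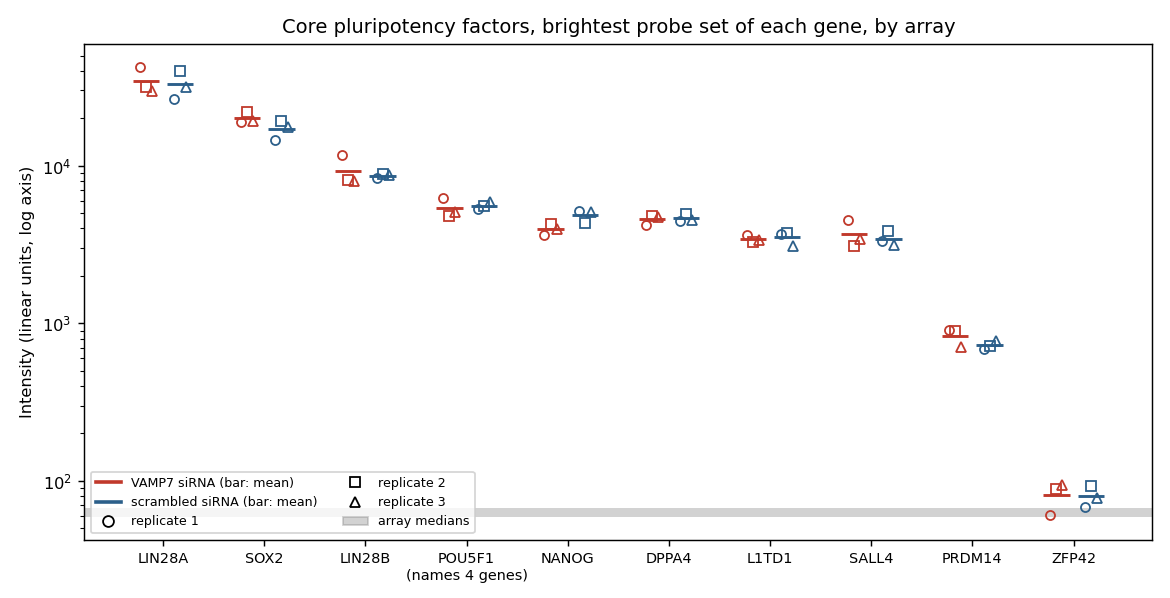
Intensity on each array (y, log axis) of the brightest probe set of each core factor (x), VAMP7 siRNA in red left of scrambled siRNA in blue, with bars for group means, symbols for replicate numbers and a grey band for the array medians (58.9 to 67.5). The groups are interleaved except for NANOG, whose VAMP7 siRNA arrays lie between 3629 and 4283 against 4314 to 5151; ZFP42 lies near the grey band.

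SALL4, a zinc-finger factor that binds AT-rich DNA, read 4504, 3086 and 3429 in VAMP7 siRNA cells and 3313, 3829 and 3122 in scrambled siRNA cells. VAMP7 siRNA arrays were again the highest and the lowest, and the log2 fold change was 0.09 (SE 0.17, limma adjusted p = 0.951). PRDM14, a repressor of differentiation genes, read 900, 893 and 710 in VAMP7 siRNA cells and 684, 718 and 778 in scrambled siRNA cells. Replicates 1 and 2 of VAMP7 siRNA lay above all scrambled arrays and replicate 3 among them (log2 fold change 0.18, SE 0.13, 95% interval -0.12 to 0.48, limma adjusted p = 0.849).

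ZFP42, whose product REX1 is a classic marker of undifferentiated embryonic stem cells, was dim on all 3 of its probe sets. The brightest (243161_x_at) read 60.8, 88.8 and 93.8 in VAMP7 siRNA cells and 68.4, 93.3 and 78.2 in scrambled siRNA cells. VAMP7 siRNA replicate 1 fell below the median of its own array and the other 5 were just above theirs. The log2 fold change was 0.008 (SE 0.14, limma adjusted p = 0.996). The other 2 ZFP42 probe sets were below the array median on all 6 arrays, with values from 1.62 to 42.6 on 1554776_at and from 1.53 to 18.7 on 1554777_at. No detection calls were used, so whether ZFP42 transcript was present was not settled.

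DPPA4, a chromatin protein of pluripotent cells, was steady on its brightest probe set and less so on the others. Its brightest probe set (232985_s_at) read 4229, 4788 and 4716 in VAMP7 siRNA cells and 4428, 4936 and 4518 in scrambled siRNA cells. The groups overlapped throughout, and their log2 difference was -0.02 (SE 0.11), with an interval of -0.27 to 0.23 (limma adjusted p = 0.989). That interval was the narrowest of the 19 and spans folds from 0.83 to 1.18. A second probe set (219651_at) averaged 1232 ± 254 in VAMP7 siRNA cells and 1341 ± 208 in scrambled siRNA cells (SD, n = 3 each). Its log2 fold change was -0.13 (SE 0.18), or -0.281 to -0.007 with an array left out. The last (241199_x_at) was below the array median on all arrays, at 5.54 to 56.8, and had an SE of 0.26.

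LIN28A had the brightest signal of the 10 genes. It read 42585, 31802 and 29645 in VAMP7 siRNA cells and 26575, 40160 and 31773 in scrambled siRNA cells. Each group spanned most of the range of the other, and the spread within groups made this the widest interval among the brightest probe sets (log2 fold change 0.08, SE 0.20, 95% interval -0.39 to 0.55, limma adjusted p = 0.965). LIN28B, its paralogue, read 11758, 8080 and 8041 in VAMP7 siRNA cells and 8317, 8812 and 8788 in scrambled siRNA cells. VAMP7 siRNA replicate 1 stood above all scrambled arrays and the other 2 below all of them. The log2 fold change was 0.08 (SE 0.17, limma adjusted p = 0.955), and -0.10 without that replicate. A probe set for LIN28B-AS1, an antisense gene at the LIN28B locus, was dim, with 8.67 to 25.3 in VAMP7 siRNA cells and 7.16 to 81.7 in scrambled siRNA cells.

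L1TD1 gave values on 2 probe sets with opposite signs. The brighter (219955_at) read 3656, 3268 and 3374 in VAMP7 siRNA cells and 3691, 3766 and 3076 in scrambled siRNA cells, a log2 fold change of -0.03 (SE 0.12, limma adjusted p = 0.982). The dimmer (236894_at) read 509, 728 and 748 in VAMP7 siRNA cells and 656, 552 and 486 in scrambled siRNA cells, a log2 fold change of 0.20 (SE 0.18, limma adjusted p = 0.88), or 0.11 to 0.37 with an array left out. On neither did the groups separate.

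Of the brightest probe sets of the 10 genes, 5 had their highest reading on VAMP7 siRNA replicate 1: POU5F1, SALL4, PRDM14, LIN28A and LIN28B. NANOG, DPPA4 and ZFP42 had their lowest reading there. This is the array with the lowest mean correlation with the others, 0.9837, and its part in these values was not tested beyond leaving it out. Without it the log2 fold change was -0.08 for LIN28A, -0.10 for LIN28B, -0.07 for SALL4 and 0.04 for DPPA4, so each of these changed sign. LIN28A was also below 0 without scrambled siRNA replicate 1 (-0.06). NANOG was at -0.22 to -0.36 whichever array was left out, SOX2 on its brightest probe set at 0.11 to 0.31, and PRDM14 at 0.13 to 0.29.

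The let-7 hairpins that LIN28 proteins bind are shown because the downstream genes of this axis were read on the same arrays. LIN28 recognises the letters GGAG, in capitals here, in the terminal part of the hairpin. RefSeq hairpins on GRCh38.p14 held GGAG at any position in 9 of 11 let-7 entries and in 43.4% of all 1562 hairpins. These shares were not limited to the terminal part. The 11 entries share 1 seed over bases 2 to 8 of their 5p arm, in capitals in the mature sequence. The hairpins of MIRLET7G (chr3:52268278-52268361, minus strand) and MIRLET7A1 (chr9:94175957-94176036, plus strand) carry GGAG, and that of MIRLET7B (chr22:46113686-46113768, plus strand) does not.
MIRLET7G hairpin: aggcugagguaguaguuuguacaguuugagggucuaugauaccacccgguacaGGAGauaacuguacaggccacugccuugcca
MIRLET7A1 hairpin: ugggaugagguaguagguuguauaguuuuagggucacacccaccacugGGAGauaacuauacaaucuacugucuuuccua
MIRLET7B hairpin: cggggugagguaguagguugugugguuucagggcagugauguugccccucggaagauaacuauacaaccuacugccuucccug
hsa-let-7g-5p: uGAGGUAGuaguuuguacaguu

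The microRNAs themselves were not measured here. Of 21 measured genes of the LIN28 and let-7 axis (uridylyl transferases, processing enzymes and let-7 targets) 0 were called, where 0.00506% of 19775 genes were called in the gene fit. At an unadjusted p under 0.05 there were also 0, beside 6.66% of all genes. In the list 17 genes lay above 0 and 4 below, with a median log2 fold change of 0.09, beside 50.8% of all genes above 0 and a median of 0.003. The median was 0.04 when the probe sets of each gene were averaged. TRIM71, a let-7 target and repressor of differentiation transcripts, read 12085, 14161 and 14499 in VAMP7 siRNA cells and 14903, 15493 and 16353 in scrambled siRNA cells. Its VAMP7 siRNA arrays all lay below the scrambled arrays, but the log2 fold change of -0.20 (SE 0.11) did not pass (limma adjusted p = 0.791), and it was -0.12 without VAMP7 siRNA replicate 1. IGF2BP1, an mRNA-binding protein of fetal tissue and a let-7 target, was at 0.18 (SE 0.10, limma adjusted p = 0.803), or 0.04 with its probe sets averaged. CCND2, a G1 cyclin, averaged 23507 ± 2860 in VAMP7 siRNA cells and 22940 ± 2590 in scrambled siRNA cells (SD, n = 3 each).

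Partners of the core circuit in primed and embryonal carcinoma cells gave 0 calls among 26 measured genes. At an unadjusted p under 0.05 there were 3 of the 26, with 1 higher and 2 lower, beside 6.66% of all genes. NR6A1 (GCNF), an orphan nuclear receptor that represses Pou5f1 in differentiating mouse stem cells, read 5738, 5155 and 5397 in VAMP7 siRNA cells and 4192, 3989 and 4135 in scrambled siRNA cells. All 3 VAMP7 siRNA arrays exceeded all scrambled arrays by more than the range within either group, and the mean was 132.3% of that in scrambled siRNA cells (log2 fold change 0.40, SE 0.09, limma adjusted p = 0.56). With the mean of its probe sets NR6A1 was at 0.14 (limma adjusted p = 0.853). POLR3G, an RNA polymerase III subunit of pluripotent cells, read 606, 845 and 929 in VAMP7 siRNA cells and 1156, 1067 and 1048 in scrambled siRNA cells (log2 fold change -0.45, SE 0.16, limma adjusted p = 0.721). It was at -0.07 with its probe sets averaged and at -0.28 without VAMP7 siRNA replicate 1. GDF3, a ligand of the TGF-beta family, named after its value was seen, averaged 1500 ± 78.5 in VAMP7 siRNA cells and 1810 ± 172 in scrambled siRNA cells (SD, n = 3 each; log2 fold change -0.26, limma adjusted p = 0.739). The brightest of the list, the neural and epiblast factors ZIC2 and OTX2, were at 0.12 and 0.12. In all 18 genes of the list lay above 0 and 8 below, with a median of 0.04.

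Factors of the naive state, the earlier form of pluripotency, were mostly dim. Of 14 measured, 10 lay below the median gene on all 6 arrays, 7 were above 0 and 7 below, and the median was 0.004. There were 0 calls, and 1 of the 14, KLF5, had a limma unadjusted p under 0.05, beside 6.66% of all genes. KLF5, a Krüppel-like factor, read 88.3, 100.3 and 84.1 in VAMP7 siRNA cells and 60.7, 54.7 and 55.3 in scrambled siRNA cells. Its groups did not overlap (log2 fold change 0.40, SE 0.09, limma adjusted p = 0.564), and its readings were near the array medians. Groups did not overlap for 2 of the 14, KLF5 and IL6ST, beside 13% of all genes. SUSD2, a surface marker of naive cells, was at 0.29 (SE 0.17), or 0.15 both with its probe sets averaged and without scrambled siRNA replicate 2. TFAP2C, the brightest, averaged 1461 ± 208 in VAMP7 siRNA cells and 1403 ± 94.7 in scrambled siRNA cells, and IL6ST, the receptor subunit gp130, 1185 ± 104 in VAMP7 siRNA cells and 1321 ± 40 in scrambled siRNA cells (SD, n = 3 each).

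Surface and enzyme markers of embryonal carcinoma had 0 of 12 genes called, beside 0.00506% of all genes. At an unadjusted p under 0.05 there were also 0, beside 6.66% of all genes. In this list 4 lay above 0 and 8 below (median -0.04). CD9, a tetraspanin, was at -0.24 (SE 0.13) and TNFRSF8 at -0.29 (SE 0.14). These were -0.11 for CD9 with its probe sets averaged or -0.16 without VAMP7 siRNA replicate 1, and -0.17 for TNFRSF8 without scrambled siRNA replicate 2. CD24 was at -0.04 and PODXL, the carrier of the TRA-1 antigens, at -0.12. Seminoma and germ cell markers had 6 of 12 genes above 0 and 6 below, a median of 0.006 and 9 genes below the median gene on all arrays. MAEL, a piRNA pathway gene, was at -0.40 (limma unadjusted p = 0.0448) on readings of 4.63 to 49.5, or -0.25 without VAMP7 siRNA replicate 2. MAEL was the 1 gene of these 12 with an unadjusted p under 0.05, beside 6.66% of all genes. PRDM1 was at 0.63 (SE 0.32) on readings of 5.02 to 105. It was at 0.25 without scrambled siRNA replicate 3, its lowest array, at 0.22 with its probe sets averaged and at 1.02 with an offset of 16. KIT was at -0.008 and PDPN at -0.14.

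Early differentiation markers gave 0 calls among 23 measured genes, 12 above 0 and 11 below, with a median of 0.02 and 16 below the median gene on all arrays. At an unadjusted p under 0.05 there were 2 of the 23, close to the 6.66% of all genes: GATA4 at -0.38 and TBX6 at 0.29, both on readings below the median gene. With the mean of probe sets they were at -0.09 and 0.15, and without 1 array GATA4 was as near 0 as -0.25 (VAMP7 siRNA replicate 3) and TBX6 as 0.19 (scrambled siRNA replicate 1). The bright members were NES and TUBB3, neural progenitor and neuronal cytoskeletal genes. NES read 10280, 8005 and 7720 in VAMP7 siRNA cells and 7433, 7530 and 7906 in scrambled siRNA cells (log2 fold change 0.17, SE 0.13), with replicate 1 of VAMP7 siRNA the highest. TUBB3 averaged 14418 ± 1700 in VAMP7 siRNA cells and 14146 ± 1380 in scrambled siRNA cells (SD, n = 3 each).

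Markers of fibroblasts, endothelium and leukocytes were measured as a check on other cells. Of 17, 12 lay below the median gene on all arrays. Their summed intensity ran from 25951 to 32527 in VAMP7 siRNA cells and from 25096 to 30402 in scrambled siRNA cells, most of it from VIM (22281 in VAMP7 siRNA cells and 22340 in scrambled siRNA cells on average) and COL1A1. In this list 11 genes lay above 0 and 6 below, with a median of 0.16, or 0.08 with probe sets averaged. None was called, and 3 of the 17 had an unadjusted p under 0.05, beside 6.66% of all genes: PDGFRA at -0.66, VWF at 0.42 and CSF1R, named after its value was seen, at 0.33. CSF1R read below the array median on all 6 arrays. Its lowest VAMP7 siRNA array (44.42) and its highest scrambled siRNA array (44.37) nearly met. With the mean of probe sets PDGFRA was at -0.25 and VWF at 0.21. On its brightest probe set PDGFRA averaged 112 ± 23.7 in VAMP7 siRNA cells and 206 ± 21.4 in scrambled siRNA cells, and VWF 1596 ± 240 in VAMP7 siRNA cells and 1176 ± 44.2 in scrambled siRNA cells (SD, n = 3 each). The part of such markers in the values of the core factors was not tested.

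**Figure D4:**
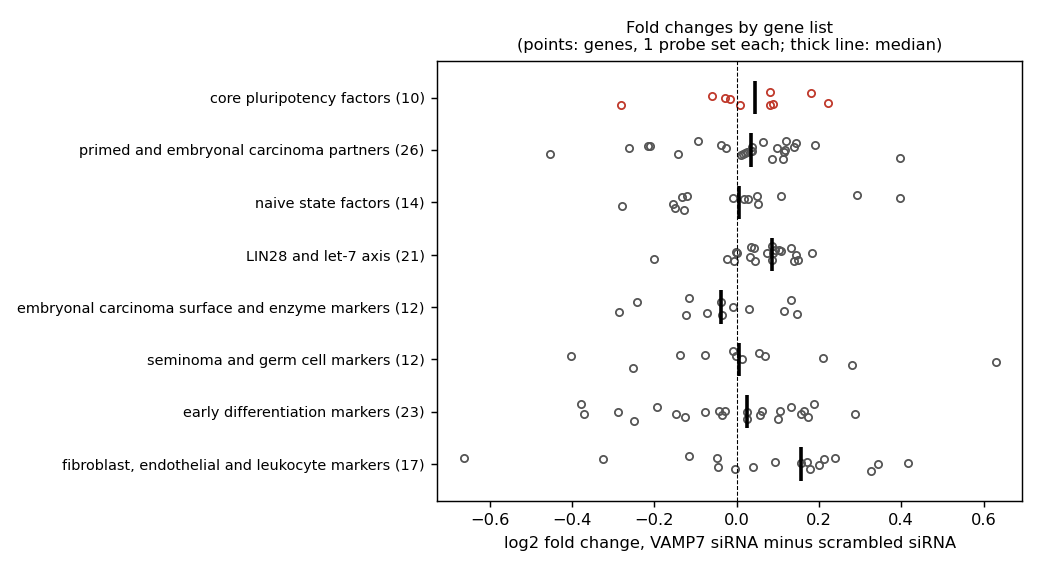
Log2 fold change, VAMP7 siRNA minus scrambled siRNA (x), for the 10 core factors and each gene of the 7 gene lists (y, with the number of genes), as points with a thick line at the median. Medians run from -0.04 for embryonal carcinoma surface and enzyme markers to 0.16 for fibroblast, endothelial and leukocyte markers, and the core factors' median is 0.05.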

How the data were processed

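RNA was measured on a human 3' expression array with 54675 probe sets, and the authors deposited a linear intensity for each. The submitters' processing notes name RMA, which gives log2 values and so does not describe the deposited linear intensities, with a trimmed mean of 500.07 on every array after 2% was left out at each end. How the linear values were made is not stated in the sources used here. No depth applies to arrays; their number limits the precision.

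From the deposited intensities, log2(intensity + 50) was computed here. Names of probe sets came from the platform annotation, with symbols updated by gene identifier (99.87% of 41091 matched) to RefSeq names of GRCh38.p14. All 54613 probe sets that are no array controls were fitted in limma 3.58.1 (R 4.3.3; lmFit, eBayes) across all probe sets, with Benjamini-Hochberg adjustment and calls at an adjusted p under 0.05. Genes of the lists were fitted likewise with 1 probe set each, that of highest mean among probe sets naming 1 gene (19775 genes). The code was tested on simulated data.

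The members and lists were chosen with earlier results of these data known. Named were all member probe sets, VAMP7, and in each list the 2 genes of smallest p and the 2 of highest intensity. Replicate numbers follow the sample titles, since all VAMP7 siRNA descriptions carry number 1. Same-numbered arrays did not deviate together (correlations -0.02 to 0.007). That gave no sign of pairing by number, but it cannot show that same-numbered samples were handled apart. Alternatives covered the offset, a filter on dim probe sets, the probe set of a gene, normalization, eBayes options, array weights, the replicate block and leaving out each array.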

Additional observations from a re-analysis of the deposited data

How the results depend on the processing

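No core factor was called under any of the 17 alternatives, VAMP7 was called under all of them (-3.96 to -3.42), and the whole table gave 1 to 3 calls. Whether the numbers pair the samples is not known. With the replicate block the median of the 19 probe sets was 0.03 and no member's call changed. The median ranged from -0.02 to 0.08, and that of all probe sets was -0.03 with median centring. Groups did not overlap for 1 member with 1 probe set a gene (13% of all features) or the mean of probe sets (12.6%), for 0 with median centring (12.8%), and for 2 to 6 with an array left out (6 without VAMP7 siRNA replicate 1), where 21.9 to 22.8% of all probe sets did not overlap either. Several differences near 0 changed sign, all uncalled, and the cause was not tested. With the mean of probe sets ZFP42 (243161_x_at) was at -0.049, L1TD1 (219955_at) at 0.088, TFAP2C at -0.091, CCND2 at -0.071, TUBB3 at -0.029 and VIM at 0.095. With quantile normalization ZFP42 (243161_x_at) was at -0.045, DPPA4 (232985_s_at) at 0.0033, CD24 at 0.0045 and VIM at 0.012. With median centring SOX2 (213722_at) was at -0.013, ZFP42 (243161_x_at) at -0.034, CCND2 at -0.007 and TUBB3 at -0.017. With array weights SOX2 (213722_at) was at -0.021, ZFP42 (1554776_at) at 0.095, DPPA4 (232985_s_at) at 0.014, LIN28B at -0.0016, CCND2 at -0.0019, KIT at 0.006 and TUBB3 at -0.008. An offset of 100 put ZFP42 (1554776_at) at 0.00051. Leaving out each array in turn gave ranges that cross 0 for POU5F1 (-0.174 to 0.015), SOX2 on 213722_at (-0.102 to 0.169), SALL4 (-0.067 to 0.203), ZFP42 on 243161_x_at (-0.063 to 0.125) and on 1554776_at (-0.251 to 0.218), DPPA4 on 232985_s_at (-0.049 to 0.04) and on 241199_x_at (-0.116 to 0.355), LIN28A (-0.076 to 0.236), LIN28B (-0.099 to 0.174) and L1TD1 on 219955_at (-0.119 to 0.025). The same held for TFAP2C (-0.055 to 0.138), CCND2 (-0.063 to 0.087), CD24 (-0.118 to 0.047), KIT (-0.054 to 0.047), TUBB3 (-0.069 to 0.103) and VIM (-0.101 to 0.074). With 3 arrays a group, intervals of the brightest probe sets other than that of ZFP42 reached from -0.57 to 0.55, so smaller changes may not have been detectable.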
